A study of Mus musculus with 6 samples.

Results

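Integrins are cell surface receptors that pair an alpha with a beta subunit, bind matrix proteins or counter-receptors outside the cell, and link them through talin and kindlin to the actin cytoskeleton inside. Blood vessel endothelium uses beta1 integrins to hold on to collagens, laminins and fibronectin of its basement membrane, and alpha-v integrins with beta3 or beta5 to bind vitronectin, thrombospondin and related RGD proteins. Beta3 is known from other systems as a subunit that is raised in endothelium of growing vessels.

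The endothelial integrin subunits described here are 10 genes, Itga1, Itga2, Itga3, Itga4, Itga5, Itga6, Itgav, Itgb1, Itgb3 and Itgb5, out of 22180 genes that the arrays measured with a probe set of 1 gene symbol. They were chosen by name, and a gene with several such probe sets was represented by the brightest, judged on all 6 arrays together. Expression was measured on Affymetrix microarrays that cover the mouse transcriptome, in blood endothelial cells sorted from mouse intestine, 1 array for each of 3 knockout and 3 control samples. Knockout mice were Apcfl//fl; Villin-CreERT2 (KO), in which tamoxifen activates a Cre recombinase under the villin promoter, so that Apc, a brake on Wnt signalling, is lost from the intestinal epithelium and not from the endothelium itself. Control mice were Apcfl//fl and are called WT in the labels, which name no Cre for them. Both groups had a mixed C57BL/6 x 129 background and received tamoxifen for 5 days before the intestine was taken on day 6. Age was not given in the sources used here. Cells were sorted for CD31 after exclusion of CD45, EpCAM and gp38, and the RNA was amplified before labelling. The labels call the samples biological replicates and do not say whether each came from 1 animal or from several.

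Values are log2 signals after RMA normalization, so that a difference of 1 is a doubling, and they compare arrays for 1 gene but not different genes. A gene counted as above background when its mean over the 6 arrays exceeded 4.12, which left 15287 genes. That level is the 90th percentile among 1432 chemosensory receptor genes (taste, olfactory and vomeronasal), which gut vessels are not known to use. All 10 subunits were above that level on all 6 arrays, so the filter removed none of them. The groups were compared with limma across all 15287 genes, with Benjamini-Hochberg adjustment over all of them, and a gene passed where its adjusted p was under 0.05. Changes are knockout minus control on the log2 scale, ± is the standard error of that fit with n = 3 arrays a group, and intervals are 95% intervals.

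Endothelial markers were bright on every array. Pecam1, which encodes CD31, averaged 11.43 in both groups, and Cdh5, the adhesion molecule of endothelial junctions, averaged 11.99 in the knockout and 12.05 in the control. The whole list of 14 endothelial markers had array means of 10.87 to 10.92 in the knockout and 10.79 to 10.83 in the control. Of the 14, 1 rose (Eng, a TGF-beta co-receptor of endothelium, 0.26 ± 0.044, adjusted p = 0.021) and 13 did not pass. At an unadjusted p under 0.05, 6 were higher (Eng, Egfl7, Kdr, Plvap, Esam and Robo4) and 0 lower, and the part of this shift in the subunits' differences was not tested. The sort left other RNA behind. Of 18 enterocyte markers, 11 fell and 0 rose, with list means of 5.21 to 5.59 on the knockout arrays and 6.71 to 8.59 on the control arrays, lowest in control 1. Epcam was at 3.74 to 3.81 on the knockout arrays and at 3.87 in control 1, all below background, but at 7.20 and 6.24 in controls 2 and 3. Of 13 markers of mural cells (smooth muscle and pericytes), 6 fell and 1 rose, with list means of 7.75 to 8.10 in the knockout and 8.37 to 8.64 in the control. In RNA from a sorted population, fewer cells of a type and less RNA per cell cannot be told apart. Lymphatic endothelium, which the exclusion of gp38 should remove, had 2 of 6 markers higher in the knockout (Flt4 and Lyve1, list means 5.72 to 6.33 against 5.47 to 5.85). Its defining factor Prox1 did not pass (change 0.056 ± 0.25, interval -0.50 to 0.61). Prox1 lay near background, with 2 arrays below it, and could show little in either direction. Pdpn, which encodes gp38, was at -0.30 ± 0.18 (adjusted p = 0.461), and Reln and Mmrn1 were at 0.18 ± 0.23 and 0.32 ± 0.62. None of these passed, and changes were positive in 5 and negative in 1 of the 6 lymphatic markers. Of the myeloid, B and plasma cell, and glial lists 0 genes passed by limma, with 1, 1 and 0 at an unadjusted p under 0.05. Those were Cd14 (0.49 ± 0.13) and Mzb1 (0.57 ± 0.18), both higher in the knockout. Changes were positive in 10 and negative in 2 myeloid markers, and positive in 3 and negative in 2 of B and plasma cells. Over all genes 2.61% passed and 16.4% had an unadjusted p under 0.05, so 0 calls in such short lists say little. The plot of marker lists shows these levels beside those of the other cell types.

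**Figure D1:**
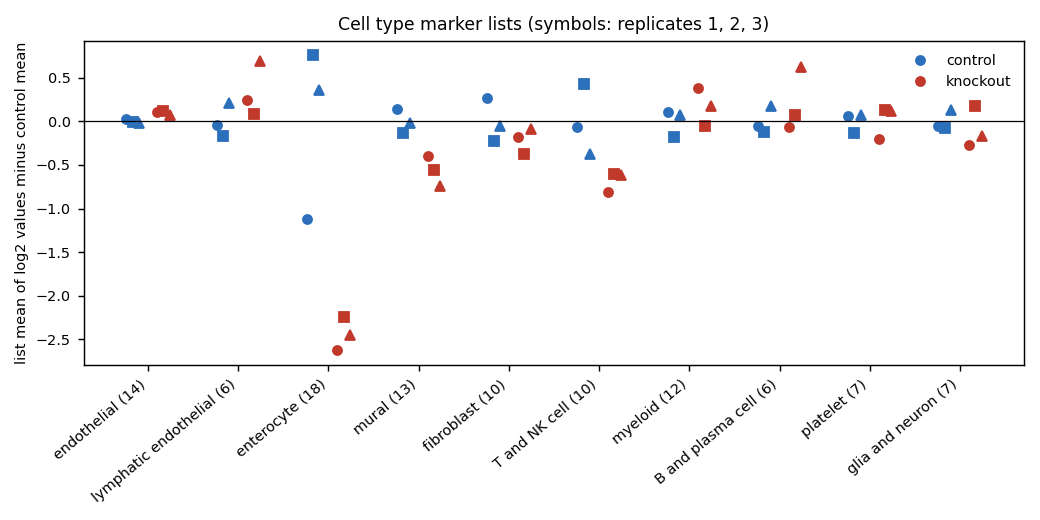
Mean log2 value of each cell type marker list on each array, minus the control mean of that list (vertical axis), with the number of measured genes in brackets and circle, square and triangle for replicates 1, 2 and 3. Enterocyte, mural and T and NK cell lists lay lower on every knockout array than on any control array, while the endothelial list was slightly higher and the platelet list overlapped.

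Of the 10 subunits, 1 rose, 0 fell and 9 did not pass, against 2.61% of all genes that passed in either direction. Itgb3, the beta3 subunit, was the one that rose, 1.82-fold. The collagen receptor subunits Itga1 and Itga2 and the common beta subunit Itgb1 did not pass and overlapped between the groups, and Itga3, Itga5 and Itga6 were higher on all 3 knockout arrays than on any control array without passing. The median change of the 10 was 0.15, against -0.017 over all genes, and 7 of the 10 had a positive change, as had 7137 of the 15287 genes. In 5 of the 10 the values of the groups did not overlap (4 higher, 1 lower), as in 22.1% of all genes (9.79% higher, 12.3% lower).

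**Figure D2:**
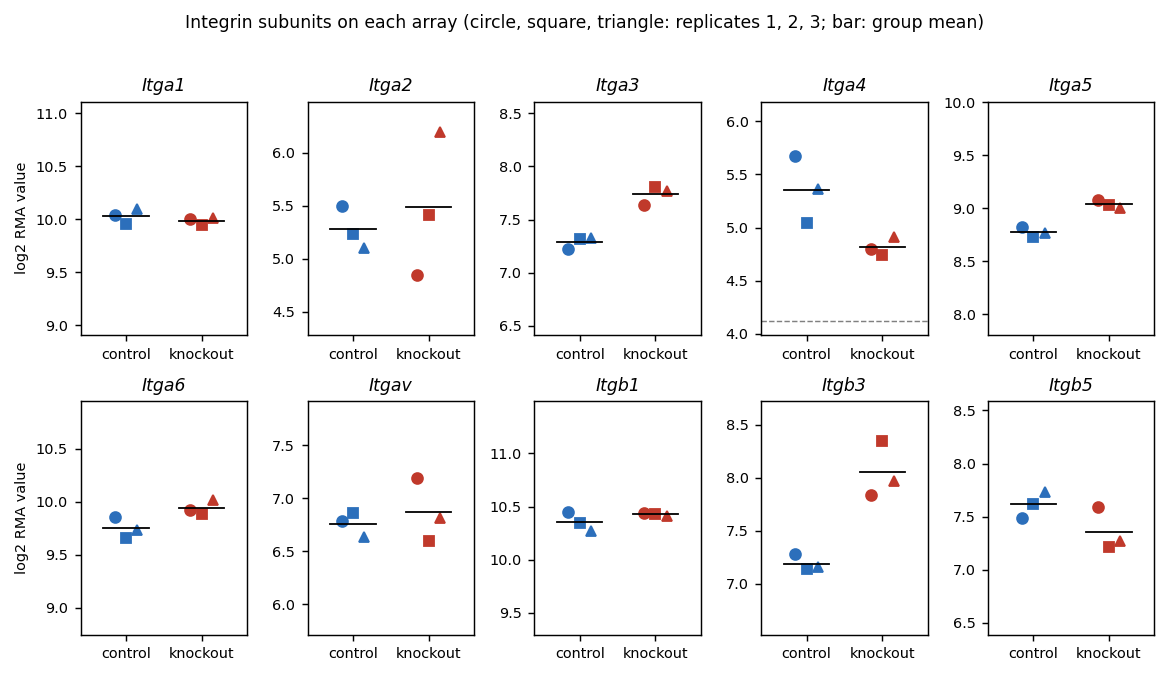
Log2 RMA values of the 10 subunits on each array (vertical axis, of the same span in every panel), control in blue and knockout in red, with circle, square and triangle for replicates 1, 2 and 3 and bars for group means. The dashed line in the Itga4 panel is the background level of 4.12. Itgb3 shows the widest gap between the groups, and Itga2 the widest scatter among the knockout arrays.

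Among the beta subunits, Itgb3 pairs with alpha-v on endothelium and with alpha-IIb on platelets. Its values were 7.84, 8.35 and 7.97 on knockout arrays 1 to 3 and 7.28, 7.14 and 7.16 on control arrays 1 to 3. All 3 knockout arrays lay above all 3 controls, and the knockout arrays scattered more (SD 0.27) than the controls (SD 0.076). The change was 0.86 ± 0.14 (interval 0.54 to 1.18, adjusted p = 0.0193 by limma), which as a fold spans 1.45 to 2.27. It was the 75th largest positive change of the 15287 genes. The call was lost without knockout 3 (adjusted p = 0.0647), without control 2 (0.0631) and without control 3 (0.0745). It was also lost with every probe set tested in place of 1 a gene (0.0906), and without a variance trend it held only at 0.0499. The change stayed between 0.71 and 0.97 with any single array left out and was 0.77 against control 1 alone. With the enterocyte mean as a covariate, the change was 0.80 and the adjusted p 0.619, in a setting where 4 genes passed in all.

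Because platelets also carry beta3, their markers are given beside it. Itga2b, the platelet partner of beta3, was at 5.02, 5.44 and 5.37 in the knockout and 5.41, 5.31 and 5.36 in the control (change -0.086 ± 0.15, adjusted p = 0.835). The chemokine genes Pf4 and Ppbp, which platelets store, had changes of -0.18 ± 0.24 and 0.013 ± 0.29. Of 7 platelet markers 0 passed by limma and 1 had an unadjusted p under 0.05. This was Gp6, named after its values were seen, with a change of 0.53 ± 0.22 (adjusted p = 0.28). It was higher on every knockout array than on any control array, with knockout 3 (4.33) close to control 1 (4.30). Gp6 lay near background, with 2 arrays below it, and Tubb1 had 1 array below it. Changes were positive in 3 and negative in 4 of the 7 markers. List means were 4.99 to 5.32 in the knockout and 5.07 to 5.27 in the control. The part of platelet RNA in the Itgb3 rise was not tested.

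Itgb1, which pairs with most of the alpha subunits listed here, stood at 10.43, 10.43 and 10.41 in the knockout and 10.45, 10.34 and 10.27 in the control. The groups overlapped, and the change of 0.072 ± 0.065 (adjusted p = 0.651) had an interval from -0.077 to 0.22. As a fold the interval ran from 0.948 to 1.16. Itgb5, which pairs with alpha-v to bind vitronectin, was at 7.59, 7.21 and 7.27 in the knockout and 7.49, 7.62 and 7.73 in the control. Knockout 1 lay among the controls, and the change of -0.26 ± 0.13 did not pass (interval -0.56 to 0.045, adjusted p = 0.389).

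The alpha-v gene Itgav, partner of beta1, beta3 and beta5, gave 7.19, 6.60 and 6.81 in the knockout and 6.78, 6.86 and 6.64 in the control. Knockout 1 was the highest and knockout 2 the lowest of the 6 arrays, so the groups overlapped (change 0.11 ± 0.16, interval -0.26 to 0.48, adjusted p = 0.798). A further Itgav probe set lay below background in both groups, at 3.54 and 3.41. Ratios within an array show how 1 subunit moved relative to another. A shift common to all genes of an array cancels in them, but other effects of normalization need not. Relative to the control mean, the Itgb3 to Itgav log2 ratio was 0.21, 1.32 and 0.72 on knockout arrays 1 to 3, and 0.064, -0.15 and 0.086 on control arrays 1 to 3. The Itgb3 to Itgb5 ratio was 0.67, 1.56 and 1.12 in the knockout and 0.21, -0.059 and -0.15 in the control, a change of 1.12. Both ratios were higher on every knockout array than on any control array. So was the Itgav to Itgb5 ratio, of which neither gene passed (0.46, 0.24 and 0.40 in the knockout, 0.15, 0.092 and -0.24 in the control). The ratios of Itga3, Itga4 and Itga5 to Itgb1 did not overlap between the groups either, so such separation was not particular to Itgb3. An exact two-sided permutation test gave 0.1 for each of these ratios, the smallest p that 3 arrays against 3 allow. After Benjamini-Hochberg adjustment over the 10 ratios computed it was 0.167.

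**Figure D3:**
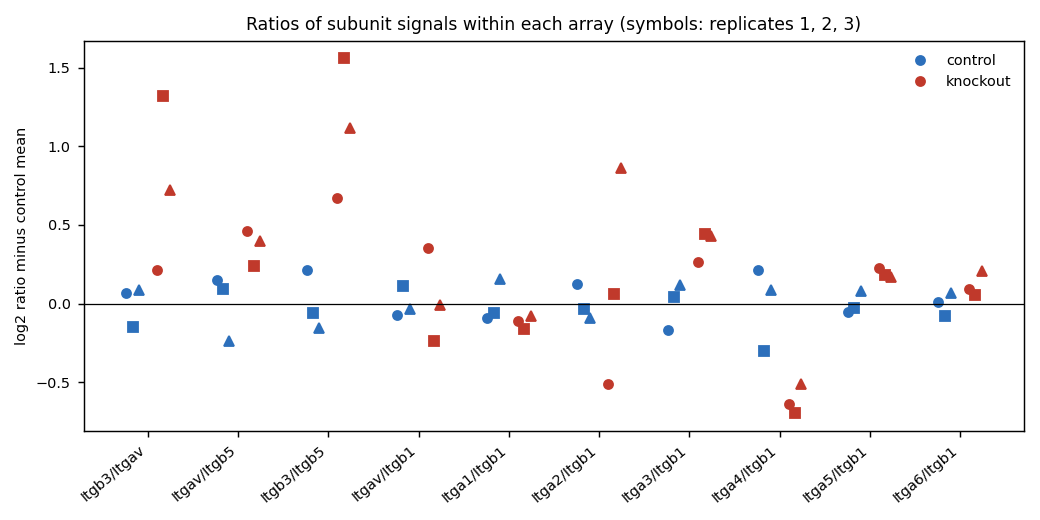
Log2 ratio of the signals of each pair of subunits on each array, minus the control mean of that ratio (vertical axis), control in blue and knockout in red, with circle, square and triangle for replicates 1, 2 and 3. Both Itgb3 ratios lay above the controls on the knockout arrays by differing amounts, while Itga4 to Itgb1 lay lower on each of them.

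Of the laminin receptor subunits, Itga3 pairs with beta1 and Itga6 with beta1 or beta4. Itga3 was at 7.63, 7.81 and 7.77 in the knockout and 7.22, 7.32 and 7.32 in the control. The groups were apart by more than their spread (SD 0.092 and 0.059), and the change was 0.45 ± 0.11, or 1.37-fold (interval 0.21 to 0.69). It did not pass (adjusted p = 0.0615) but passed when each array was set to a common median of all genes (adjusted p = 0.0497). Itga6 was at 9.93, 9.88 and 10.02 in the knockout and 9.86, 9.66 and 9.74 in the control. Knockout 2 lay just above control 1, and the change of 0.19 ± 0.078 did not pass (adjusted p = 0.264). Epithelium also carries both genes. Enterocyte markers were lower on all knockout arrays, and the part of epithelial RNA in these differences was not tested.

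The fibronectin receptor subunit Itga5, partner of beta1, was at 9.08, 9.03 and 8.998 in the knockout and 8.82, 8.73 and 8.77 in the control. The 2 groups were tight (SD 0.040 and 0.045) and did not overlap. The change was 0.26 ± 0.078, or 1.20-fold (interval 0.087 to 0.44, adjusted p = 0.125). Relative to Itgb1 on the same array, Itga5 was 0.17 to 0.23 above the control mean in the knockout and -0.051 to 0.080 around it in the control. Itga3 relative to Itgb1 was 0.27 to 0.44 above it in the knockout and -0.17 to 0.12 around it in the control. Exact permutation p-values were again 0.1 for both ratios.

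Itga4, which with beta1 binds Vcam1 and fibronectin and with beta7 binds Madcam1, is best known from leukocytes. Its values were 4.80, 4.74 and 4.91 in the knockout and 5.67, 5.04 and 5.36 in the control, above but near the background level of 4.12. Every knockout array lay below every control array, with knockout 3 close to control 2, and the change of -0.54 ± 0.18 did not pass (interval -0.94 to -0.14, adjusted p = 0.161). Another probe set, shared with Cerkl, averaged 3.82 and 3.93, below background, and was not used. Markers of T and NK cells lay lower on the knockout arrays too. Their 10-gene list averaged 4.26 to 4.46 in the knockout and 4.70 to 5.50 in the control, with 0 of 8 tested genes passing by limma and 5 at an unadjusted p under 0.05. Cd2 and Klrd1 were not above background, and Ptprc, which encodes CD45, averaged 4.14 and 4.46. The part of leukocyte RNA in the Itga4 difference was not tested.

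Promoter windows of the table used here held 8 of the 10 subunits, without Itgb3 and Itga6. The 3 printed here were chosen because their genes were higher (Itga3, Itga5) or lower (Itga4) on all knockout arrays than on any control array. Each run is the 250 bases before the RefSeq start on GRCm38.p6, 5′ to 3′ on the gene's strand, and capitals mark GC boxes, GGGCGG on either strand, the core site of Sp1 family factors.
Itga3 (chr11:95076715-95076964, minus strand): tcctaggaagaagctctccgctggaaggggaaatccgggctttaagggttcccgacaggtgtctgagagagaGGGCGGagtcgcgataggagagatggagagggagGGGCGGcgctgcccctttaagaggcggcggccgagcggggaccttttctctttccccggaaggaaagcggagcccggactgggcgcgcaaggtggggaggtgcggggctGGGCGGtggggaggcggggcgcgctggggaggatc
Itga5 (chr15:103366792-103367041, minus strand): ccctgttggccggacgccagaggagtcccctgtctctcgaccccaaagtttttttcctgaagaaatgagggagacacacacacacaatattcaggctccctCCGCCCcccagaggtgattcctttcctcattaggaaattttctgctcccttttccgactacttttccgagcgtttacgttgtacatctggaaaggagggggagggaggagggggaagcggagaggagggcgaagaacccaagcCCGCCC
Itga4 (chr2:79255176-79255425, plus strand): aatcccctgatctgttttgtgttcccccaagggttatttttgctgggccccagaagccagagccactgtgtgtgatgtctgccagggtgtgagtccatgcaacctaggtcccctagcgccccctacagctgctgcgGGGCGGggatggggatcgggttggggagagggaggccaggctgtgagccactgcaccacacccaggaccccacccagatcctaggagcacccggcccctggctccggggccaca

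The printed Itga3 window held 3 GC boxes, that of Itga5 held 2 and that of Itga4 held 1. Itga3 has another, downstream start in the table, whose window held 1 GC box and 0 ETS cores. The window of the upstream start is printed, a choice made after the motifs were counted. Of the 9 windows of the 8 subunits, 6 had at least 1 GC box, against 32.7% of all 32851 promoter windows of the same length. Of these 9, 8 had more G and C than the median window (52.4%), at 55.6% to 68%, and the other had 50.8%. Letters of the ETS core, GGAAG on either strand, which the ETS factors of endothelium read, occurred 3 times in the printed Itga3 window, once in that of Itga5 and not in that of Itga4, with none overlapping a GC box. ETS cores occurred in 5 of the 9 windows and in 64.1% of all windows.

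Both collagen receptor subunits, which pair with beta1, overlapped between the groups. Itga1 gave 9.999, 9.95 and 10.01 in the knockout and 10.04, 9.96 and 10.10 in the control, with a change of -0.046 ± 0.067 (interval -0.20 to 0.11, adjusted p = 0.793). Its interval as a fold ran from 0.873 to 1.08. Itga2 gave 4.84, 5.42 and 6.20 in the knockout and 5.50, 5.23 and 5.10 in the control. Knockout 1 was the lowest and knockout 3 the highest of the 6 arrays, so that its change of 0.21 ± 0.30 (adjusted p = 0.791) had an interval from -0.47 to 0.89 and turned to -0.15 without knockout 3.

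**Figure D4:**
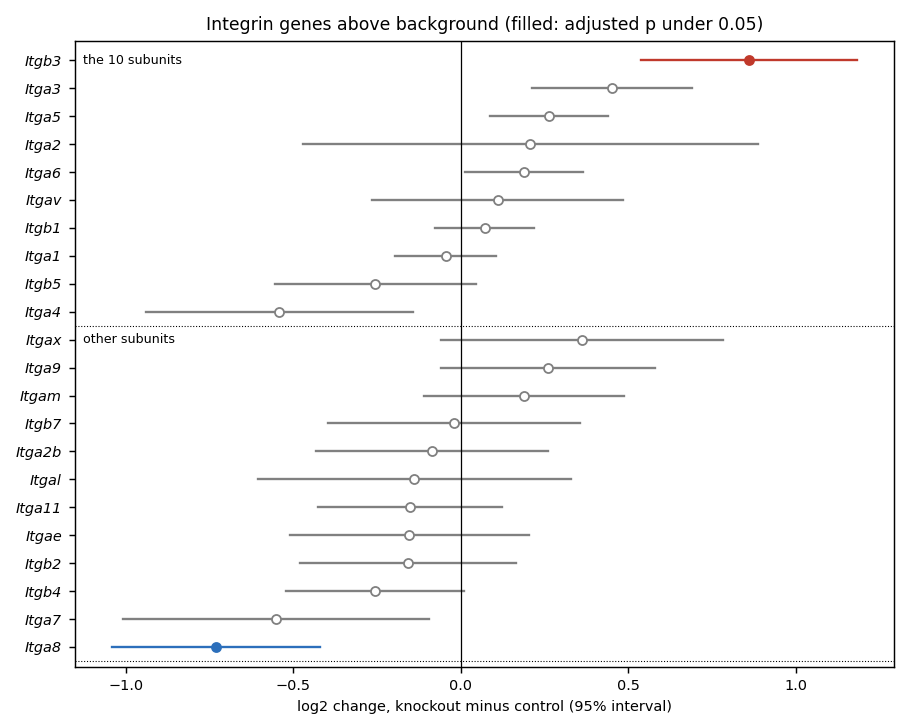
Log2 change with its 95% interval (horizontal axis) of the 10 subunits and of the 12 other integrin genes above background, each group sorted by its change. Filled red points rose and filled blue points fell at an adjusted p under 0.05, and open points did not pass. Itgb3 and Itga8 are the filled points.

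Of the other 16 integrin genes listed, 15 were measured and 12 were above background, while Itgad, Itgb6 and Itgb8 were not. Itga8, a subunit of smooth muscle and other mesenchymal cells, fell from 5.90, 5.73 and 5.72 in the control to 5.10, 5.13 and 4.93 in the knockout (change -0.73 ± 0.14, adjusted p = 0.029). This call was lost with any single array left out (adjusted p from 0.0632 to 0.113). Itga7, the laminin receptor subunit of muscle, was at -0.55 ± 0.20 (adjusted p = 0.211). Mural markers fell alongside, as given above, with Rgs5 at -0.70 ± 0.13 and Acta2 at -0.82 ± 0.15 (adjusted p = 0.0258 and 0.029), and their part in the Itga8 fall was not tested. The remaining 10 genes did not pass. Among them were Itgb4, a partner of alpha6 best known from epithelium (-0.26 ± 0.12, adjusted p = 0.325), and the leukocyte subunit Itgax (0.36 ± 0.19, adjusted p = 0.383). Itgax lay near background, with 1 array below it. The leukocyte subunits Itgb7 (-0.021 ± 0.17), Itgb2 (-0.16 ± 0.14), Itgal (-0.14 ± 0.21), Itgae (-0.15 ± 0.16) and Itgam (0.19 ± 0.13), named afterwards, overlapped between the groups. Itgb4 was at 8.01, 8.08 and 7.88 in the knockout and at 8.41, 8.27 and 8.05 in the control, and the part of epithelial RNA in it was not tested. The median change of the 12 was -0.15.

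The genes whose values followed Itgb3 most closely over the 6 arrays were Akap2, an anchoring protein of protein kinase A (Pearson r = 0.994), Fscn1, the actin bundler fascin (0.993), and Zfp287, a zinc finger gene (0.993). In all, 92 genes reached 0.95 or more. These coefficients hold 6 points that share the difference between the groups, and the log2 changes of these 3 genes lay between 0.28 and 0.45 with none passing (adjusted p from 0.154 to 0.203).

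Ligands of the integrins went in both directions. Of 44 listed, 37 were above background, of which 7 rose, 3 fell and 27 did not pass, against 1.13% of all genes higher and 1.48% lower. The 37 had a median change of 0.086. Thbs1, thrombospondin-1, a ligand of alpha-v beta3 and an inhibitor of vessel growth, rose from 10.12, 9.96 and 9.78 in the control to 11.06, 11.29 and 11.12 in the knockout (2.30-fold, 1.20 ± 0.095, adjusted p = 0.00095). All knockout arrays lay well above all controls. Vtn, vitronectin, the classical ligand of alpha-v beta3 and beta5, moved the other way, from 8.01, 7.89 and 8.02 to 7.05, 6.19 and 6.50 (2.63-fold lower, -1.39 ± 0.20, adjusted p = 0.0113). Pericytes are a known source of Vtn in the vessel wall. The mural markers fell too, and their part in the Vtn fall was not tested. With any 1 array left out Thbs1 still passed, whereas Vtn did not pass without knockout 3 (adjusted p = 0.0572) or control 3 (0.0515). Against control 1 alone, the control array with the lowest enterocyte list mean, the change of Thbs1 was 1.04 and that of Vtn -1.43. The other called ligands were there at 1.03 (Nid1), 0.78 (Nid2), 0.76 (Lamb1), 0.56 (Lama3, Col4a1 and Col4a2), -0.90 (Tgfbi) and -1.01 (Col1a2).

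Ligands of the basement membrane are the nidogens, laminins, collagen IV and perlecan, a class drawn up after the values were seen. Of its 13 genes above background, 6 rose, 0 fell and 7 did not pass, against 1.13% of all genes higher and 1.48% lower. Because the class was chosen that way, nothing is read from this count or from its contrast with the other ligands. The median change of the 13 was 0.26 and the lowest -0.48. Nid1, which links laminin to collagen IV, was at 11.28, 11.25 and 11.22 in the knockout and 10.22, 10.44 and 10.46 in the control (0.88 ± 0.073, adjusted p = 0.00136). Nid2 was at 0.89 ± 0.13 (adjusted p = 0.0137), the laminin beta1 chain gene Lamb1 at 0.64 ± 0.091 (adjusted p = 0.0113) and the laminin alpha3 chain gene Lama3 at 0.54 ± 0.074 (adjusted p = 0.0104). The collagen IV genes Col4a1 and Col4a2, chosen after their values were seen, rose by 0.54 ± 0.087 (adjusted p = 0.0178) and 0.53 ± 0.12 (adjusted p = 0.04997). Col4a2 lay at the threshold, and its call was lost without a background filter (0.0675) and with array weights (0.0509), among other settings. Lama2, a laminin chain of muscle and mesenchyme, was at -0.48 ± 0.14 and did not pass (adjusted p = 0.114). The laminin beta2 chain gene Lamb2, named afterwards, was at -0.24 ± 0.082 and did not pass either (adjusted p = 0.179). With any 1 array left out Nid1 and Lamb1 still passed. Lama3 did not pass without knockout 3 (0.0508), and Nid2 did not without knockout 3 (0.0604) or control 3 (0.0552). Col4a1 passed only without control 1 (0.0325) or control 2 (0.016) and Col4a2 only without control 2 (0.0348).

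The falls among ligands beside Vtn were Tgfbi, a matrix protein that binds integrins (-0.73 ± 0.14, adjusted p = 0.0337), and the fibrillar collagen gene Col1a2 (-0.83 ± 0.17, adjusted p = 0.0433), both chosen after their values were seen. With 1 array left out Tgfbi passed only without control 3 (0.0497) and Col1a2 only without knockout 1 (0.0178). With the mean of a gene's probe sets in place of the brightest, Col1a2 was at -0.50 and did not pass (adjusted p = 0.121), which left 9 ligands called. Postn, periostin, was at -1.02 ± 0.30 (adjusted p = 0.12) and Tgfb1, whose latent form alpha-v integrins activate, at 0.37 ± 0.12 (adjusted p = 0.157). Fibronectin, the ligand of alpha5 beta1, was named after its values were seen. Its gene Fn1 was at 8.47, 8.83 and 8.70 in the knockout and 9.15, 8.44 and 8.73 in the control, overlapping (-0.11 ± 0.17, adjusted p = 0.808). Vcam1 and Madcam1, the counter-receptors of alpha4 integrins on endothelium, also named afterwards, were at -0.64 ± 0.21 (adjusted p = 0.171) and 0.015 ± 0.11 (adjusted p = 0.967). Mural markers and Col1a2 fell together, and the part of mural or fibroblast RNA in these falls was not tested. Of 9 fibroblast markers above background, 1 fell (Col1a2 itself), with 10-gene list means of 5.84 to 6.13 in the knockout and 5.99 to 6.49 in the control.

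**Figure D5:**
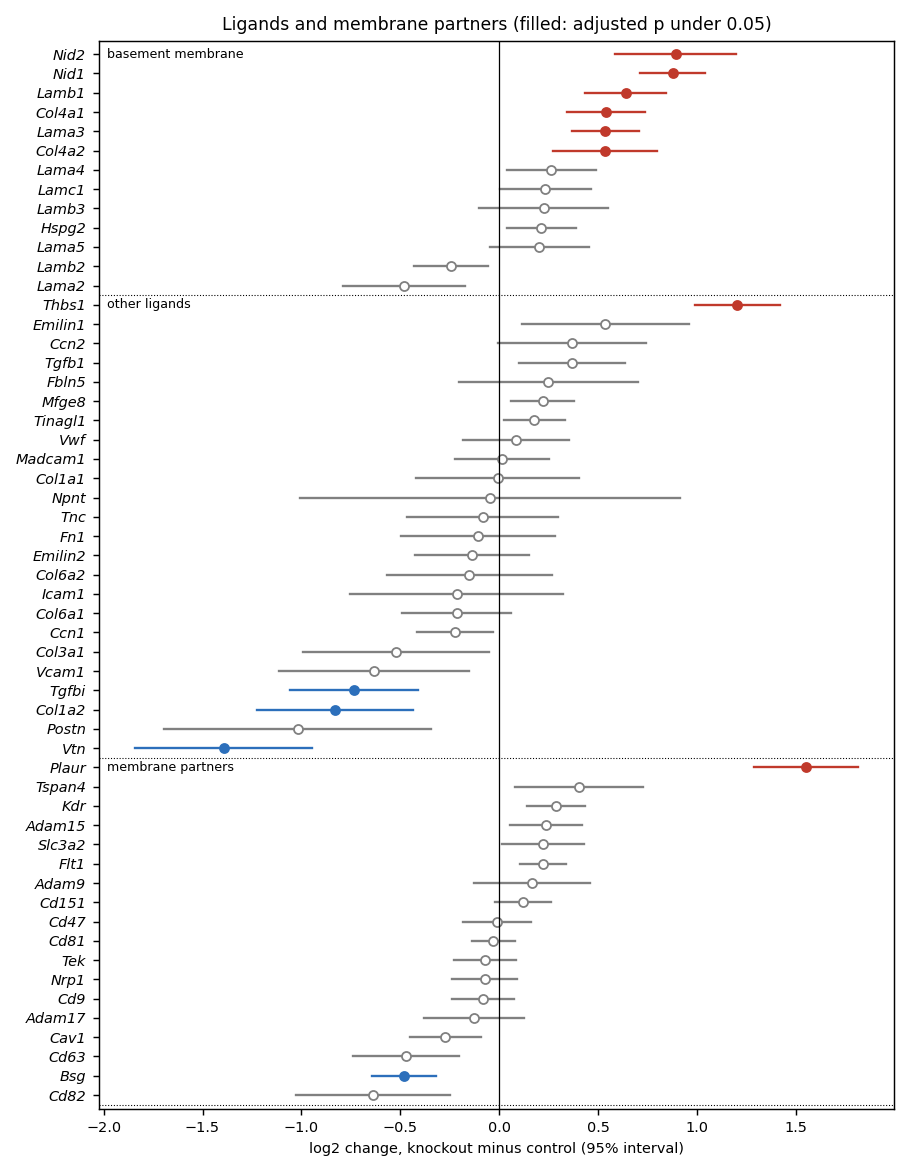
Log2 change with its 95% interval (horizontal axis) of integrin ligands in the basement membrane, other ligands and membrane partners, each class sorted by its change. Filled red points rose and filled blue points fell at an adjusted p under 0.05. Plaur and Thbs1 stand farthest to the right and Vtn farthest to the left.

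Of 19 membrane proteins that associate with integrins, 18 were above background, of which 1 rose, 1 fell and 16 did not pass, against 1.13% of all genes higher and 1.48% lower. Plaur, the urokinase receptor, which binds integrins sideways in the membrane, was at 9.53, 9.90 and 9.83 in the knockout and 8.06, 8.21 and 8.34 in the control (1.55 ± 0.12, adjusted p = 0.000741). Bsg, basigin, which associates with beta1 integrins, fell from 10.84, 10.75 and 10.79 in the control to 10.43, 10.30 and 10.20 in the knockout (-0.48 ± 0.072, adjusted p = 0.0137). Plaur still passed with any 1 array left out, while Bsg did not without knockout 3 (0.0568) or control 3 (0.0575). The VEGF receptor genes Kdr, whose product couples to alpha-v beta3, and Flt1 were at 0.28 ± 0.064 (adjusted p = 0.0549) and 0.22 ± 0.052 (adjusted p = 0.0642), and the tetraspanin gene Cd63 at -0.47 ± 0.12 (adjusted p = 0.0762). Inside the cell, 45 of 53 listed adaptors and regulators were above background. By limma 0 of these passed, 13 had an unadjusted p under 0.05 (9 higher, 4 lower, against 16.4% of all genes in either direction) and the median change was 0.061. The nearest were Tns2, tensin-2 (0.34 ± 0.089, adjusted p = 0.0919), Arhgef7, the exchange factor beta-Pix (0.43 ± 0.12, adjusted p = 0.0998), and Dab2, an endocytic adaptor for integrins (0.37 ± 0.11, adjusted p = 0.122). Talin-1 and kindlin-2, which switch integrins on, were named afterwards, with Tln1 at 0.10 ± 0.084 and Fermt2 at 0.20 ± 0.095.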

How the data were processed

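The authors deposited 1 table of log2 values for 41345 probe sets on 6 arrays, made with RMA in the oligo package per the submitters' processing notes (versions not given in the sources used here). RMA corrects background, normalizes quantiles across arrays and summarises probes, so that values are relative to the other arrays. Array medians lay between 4.77 and 4.81, array correlations between 0.977 and 0.984 within groups and between 0.964 and 0.974 across them. Arrays have no read depth, and their number limits the precision. Scanner values were not used here, so background correction and scan date could not be varied.

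Gene names came from the platform annotation (23521 probe sets with 1 symbol, 1814 with several, 16010 with none). Of those with 1 symbol, 23328 had a gene identifier found in RefSeq, whose symbol was then used. Genes on the lists kept their platform symbol. Groups follow the sample titles. The comparison was a two-sided limma fit (version 3.58.1, R 4.3.3) by lmFit and trended eBayes, with no covariate. It was tested on simulated data. Figures used matplotlib 3.10.9 in Python 3.11.15.

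Named genes were the 10 subunits, up to 6 called genes and the 3 nearest others of each related list, and the 3 genes most correlated with a called subunit. From the cell type lists, sort markers were named, with the brightest genes of the endothelial, lymphatic, mural and platelet lists. Other markers were named after their values were seen, among them Eng, Egfl7, Esam, Robo4, Cd14 and Mzb1. Members, lists, rule and tests were chosen with earlier results of these data known. The shared replicate numbers did not pair the samples: deviations of same-numbered arrays correlated at -0.020, -0.0078 and 0.039. Nothing in the labels ties replicates to separate animals, so p-values measure the spread between these samples.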

Additional observations from a re-analysis of the deposited data

How the results depend on the processing

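The 21 alternatives to the comparison changed the background filter, normalization, probe sets, variance model, array weights, threshold, arrays and covariates. They kept the direction and the side of the threshold in 193 repeats for the 10 subunits, with 8 turned in sign, 7 weaker (all Itgb3) and 2 stronger (both Itga3). The background filters, every probe set, the variance models, the replicate block and the thresholds left each log2 change as it was. The direction could not turn in those settings, and averaging probe sets altered only the change of Itgav. The number of repeats kept therefore does not measure how stable the directions were. The 8 turns of sign were all in changes that had not passed. They were Itga2 at -0.15 without knockout 3, at -0.014 against control 1 alone and at -0.093 with the enterocyte mean as covariate, Itgav at -0.053 without knockout 1 and at -0.019 with the covariate, Itgb1 at -0.026 against control 1 alone and at -0.11 with the covariate, and Itga6 at -0.059 with the covariate. With 1 array left out Itga2 ranged from -0.15 to 0.53 and Itgav from -0.053 to 0.24. Group and covariate moved together on these arrays, and the causes were not tested. The count of called subunits, 1 as reported, was 2 with a common array median and at a threshold of 0.1, where Itga3 was added, and 0 at 0.01, with every probe set tested, against control 1 alone and with the covariate.

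Over all genes, 399 passed (173 higher, 226 lower). The count was 768 at 0.1 and 68 at 0.01, 139 without a variance trend, 23 with every probe set tested, 52 against control 1 alone and 4 with the covariate. With 1 array left out it ranged from 91 to 379. Under the same choices, called ligands (10 as reported) numbered 2 at 0.01, 3 without a variance trend, 2 with every probe set tested, 2 against control 1 alone and 0 with the covariate, and 3 to 8 with 1 array left out. Membrane partners (2) numbered 6 at 0.1, and 1 at 0.01, without a variance trend, with every probe set tested and against control 1 alone, 0 with the covariate, and 1 to 3 with 1 array left out. Adaptors (0) numbered 2 at 0.1 and 0 to 1 with 1 array left out. Called subunits ranged from 0 to 1 with 1 array left out. Other integrin subunits (1, Itga8) numbered 0 at 0.01, with every probe set tested, against control 1 alone, with the covariate and with any 1 array left out. A lone control was assumed to vary like the knockout arrays.

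With the replicate number as a block, 394 genes passed, 1 adaptor was called in place of 0 and 0 other subunits in place of 1, and Itgb3 kept its call (adjusted p = 0.0327). The common array median gave 49.2% higher calls, against 43.4% as reported.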
